A study of Saccharomyces cerevisiae with 35 samples.

Results

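The 10 genes described here encode enzymes that make and break down trehalose and glycogen, the storage carbohydrates of Saccharomyces cerevisiae. They were chosen by name, as rows of the deposited gene count tables, and are 10 of 12131 counted features. All 10 passed the filter on low counts in both sequencing batches. RNA was sequenced from colonies grown on YPD plates for 4 days, with several colonies pooled in each library, and F45 was included in each of 2 batches.

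All strains were derivatives of F45, a haploid MATa strain whose colonies are fluffy, and they shared the deletion of ho, an SPS2:EGFP fusion, and an unmapped serine auxotrophy. In the first batch, with 4 libraries per group, these were a strain disomic for chromosome XV (the XV disome), a strain disomic for chromosome XVI (the XVI disome), and an XVI disome in which 1 of the 2 DIG1 copies was deleted (the hemizygous strain), besides F45 carrying a low copy DIG1 plasmid, F45 carrying the empty plasmid pRS41K, and F45 itself. In the second batch these were the flo11Δ and cis3Δ strains, each with 4 libraries from 2 clones, and F45 with 3 libraries. Each disome was a single isolate with an extra copy of its chromosome, so the effects of the karyotype and of the isolate cannot be told apart. The labels do not say that libraries of a group came from separate cultures, so p-values measure the spread between these libraries, which may be partly technical. In RNA from whole colonies, fewer cells of a type and less RNA per cell cannot be told apart.

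Libraries held 6503076 to 37823857 counts in the first batch and 11565108 to 25104790 in the second, and the members had between 583 and 37988 counts in a library. Levels are given in CPM, the counts of a gene scaled by the library's size. DIG1, a repressor of the filamentation pathway, averaged 136.8 ± 11.3 CPM in the XVI disome, 60.2 ± 4.69 CPM in the hemizygous strain and 304 ± 10.8 CPM in the DIG1 plasmid strain, against 71.2 ± 2.55 CPM in the empty plasmid strain and 68.4 ± 4.09 CPM in F45 (SD, n = 4 each). FLO11 fell to 4.62 ± 1.33 CPM in flo11Δ, against 19100 ± 1112 CPM in F45, and CIS3 was at 0.276 ± 0.0824 CPM in cis3Δ, against 769 ± 53.9 CPM in F45 (SD, n = 4 and 3). Of the mating type markers, STE2, specific to a cells, lay between 105 and 267 CPM in all libraries, and the α factor gene MF(ALPHA)1 did not exceed 3.85 CPM. STE3, which is normally specific to α cells, lay between 8.71 and 36.9 CPM, so this marker was low but present. The a cell markers MFA1, MFA2 and BAR1 were lower in both disomes than in F45. In the XV disome MFA2 averaged 43.2 CPM, against 274 CPM in F45 of that batch. MFA1 averaged 15.6 against 54.0 CPM and BAR1 4.86 against 24.3 CPM. STE3 averaged 10.4 CPM in the XV disome, above BAR1.

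Trehalose is made from UDP-glucose and glucose 6-phosphate by a complex in which Tps1 is the synthase, Tps2 the phosphatase that releases free trehalose, and Tsl1 a regulatory subunit. It is hydrolyzed by the neutral trehalase Nth1 in the cytosol and by the acid trehalase Ath1. Glycogen is elongated from the same UDP-glucose by the glycogen synthases Gsy1 and Gsy2, branched by Glc3, and degraded by the phosphorylase Gph1 and the debranching enzyme Gdb1. In yeast both stores accumulate as glucose runs out, and many of these genes respond to Msn2 and Msn4, activators that bind stress response elements with the core AGGGG.

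Because of these elements, the promoter windows of the members were read from the R64 reference genome, the build to which the authors aligned. Each window holds the 300 bases that end 100 bases before the start codon, and the bases in F45 itself were not examined. The core was searched as AGGGG and as CCCCT, its reverse complement, forms that cannot overlap, and these 5 letters are shown in capitals below. All 10 members held at least 1 core, against 23.4% of the windows of 6573 nuclear ORFs, and 6 of the 10 (60%) held at least 2, against 3.93%. TPS1 and TSL1 had the most, with 5 each, followed by NTH1 and GLC3 with 3, GSY2 and GPH1 with 2, and TPS2, ATH1, GSY1 and GDB1 with 1. A match is a description of the letters and not a binding site. The windows below were printed for TPS1 and TSL1, which had the most cores, and for GPH1, which lies on chromosome XVI. GLC3 was added as the member with the highest mean level per length in F45 of the first batch. Both synthases of glycogen were added because their levels moved in opposite directions in the XV disome. The decrease of GSY2 there was the less firm change, as described below. The window of TSL1 overlaps the dubious ORF YML100W-A.
TPS1 (chrII:490493-490792, minus strand): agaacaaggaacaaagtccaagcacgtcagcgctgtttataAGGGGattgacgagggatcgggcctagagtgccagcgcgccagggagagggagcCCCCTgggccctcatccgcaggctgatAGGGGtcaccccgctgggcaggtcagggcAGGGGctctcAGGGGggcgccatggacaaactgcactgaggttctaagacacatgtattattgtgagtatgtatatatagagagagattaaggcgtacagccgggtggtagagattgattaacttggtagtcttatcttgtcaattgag
TSL1 (chrXIII:70224-70523, plus strand): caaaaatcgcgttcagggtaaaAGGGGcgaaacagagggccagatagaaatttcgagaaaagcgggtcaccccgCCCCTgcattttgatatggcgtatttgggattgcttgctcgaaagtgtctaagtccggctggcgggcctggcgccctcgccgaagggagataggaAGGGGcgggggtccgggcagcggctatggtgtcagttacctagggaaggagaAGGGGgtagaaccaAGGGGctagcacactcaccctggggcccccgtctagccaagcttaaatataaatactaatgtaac
GLC3 (chrV:132720-133019, plus strand): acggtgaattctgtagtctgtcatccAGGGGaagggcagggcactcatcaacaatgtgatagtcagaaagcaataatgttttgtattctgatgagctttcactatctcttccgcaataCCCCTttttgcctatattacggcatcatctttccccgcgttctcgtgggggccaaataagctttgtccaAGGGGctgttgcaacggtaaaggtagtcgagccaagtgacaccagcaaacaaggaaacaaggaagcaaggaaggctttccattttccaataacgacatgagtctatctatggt
GSY1 (chrVI:176492-176791, minus strand): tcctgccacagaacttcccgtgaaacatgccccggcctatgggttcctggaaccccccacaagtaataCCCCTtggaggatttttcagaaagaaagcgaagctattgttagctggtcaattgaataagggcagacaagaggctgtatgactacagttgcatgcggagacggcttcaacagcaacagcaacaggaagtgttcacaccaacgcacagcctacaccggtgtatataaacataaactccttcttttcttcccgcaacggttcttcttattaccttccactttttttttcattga
GSY2 (chrXII:660316-660615, plus strand): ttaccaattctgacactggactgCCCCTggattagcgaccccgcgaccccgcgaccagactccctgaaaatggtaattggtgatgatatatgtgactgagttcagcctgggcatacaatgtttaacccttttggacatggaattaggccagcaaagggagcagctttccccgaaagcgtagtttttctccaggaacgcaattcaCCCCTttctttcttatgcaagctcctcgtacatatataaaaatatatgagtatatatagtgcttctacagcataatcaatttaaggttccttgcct
GPH1 (chrXVI:860906-861205, plus strand): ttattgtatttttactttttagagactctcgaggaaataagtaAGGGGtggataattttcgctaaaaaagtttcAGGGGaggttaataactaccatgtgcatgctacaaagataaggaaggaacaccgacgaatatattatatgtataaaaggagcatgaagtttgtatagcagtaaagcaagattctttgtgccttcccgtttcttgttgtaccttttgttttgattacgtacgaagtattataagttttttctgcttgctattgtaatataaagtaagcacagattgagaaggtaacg

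**Figure D1:**
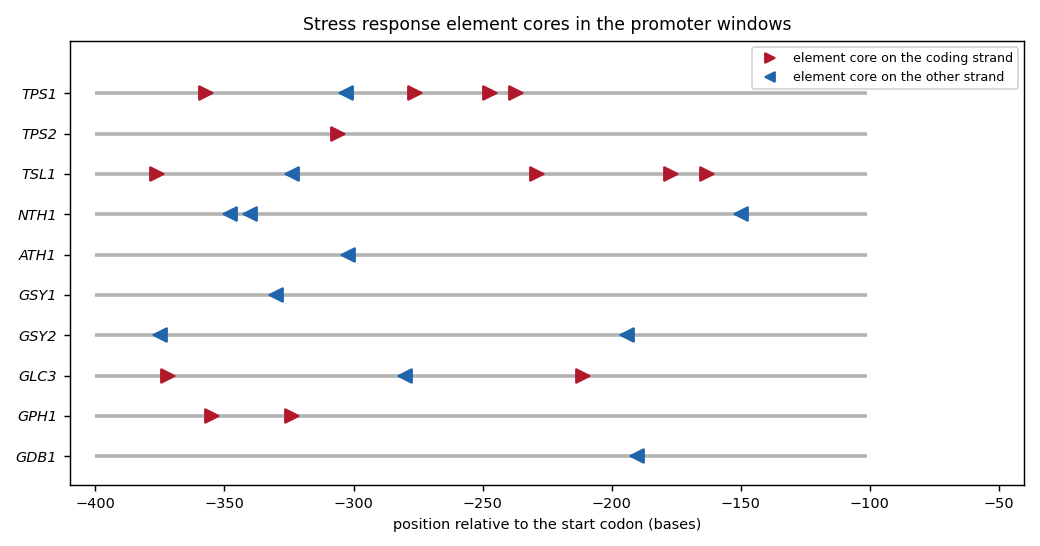
Positions of the stress response element core in the window of each member, in bases before the start codon, with right-pointing marks for the coding strand and left-pointing marks for the other strand. The 5 cores of TPS1 and the 5 of TSL1 stand out against the single core of TPS2, ATH1, GSY1 and GDB1.

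TPS1 (YBR126C, chrII:488905-490392), TPS2 (YDR074W, chrIV:593893-596583), TSL1 (YML100W, chrXIII:70624-73920), NTH1 (YDR001C, chrIV:450220-452475), GSY1 (YFR015C, chrVI:174265-176391), GSY2 (YLR258W, chrXII:660716-662833) and GLC3 (YEL011W, chrV:133120-135234) are on chromosomes with 1 copy in all strains. ATH1 (YPR026W, chrXVI:615379-619014), GPH1 (YPR160W, chrXVI:861306-864014) and GDB1 (YPR184W, chrXVI:902044-906654) are on chromosome XVI, which has 2 copies in the XVI disome and the hemizygous strain. For these 3, fold changes are given per chromosome copy, and the change in total transcript is given beside them. No stretch of a read's length was shared between GSY1 and GSY2, TSL1 and its paralog TPS3, or NTH1 and its paralog NTH2, whose longest common stretches were 20, 15 and 33 bases.

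In F45 of the first batch, the most abundant members per length were GLC3 with 538 ± 34.7 CPM per kb and GPH1 with 509 ± 47.0 CPM per kb (SD, n = 4), and the difference between these means was smaller than their SDs together. TPS1 followed with 419 ± 38.6, GSY2 with 279.5 ± 36.5 and TPS2 with 198 ± 19.6 CPM per kb, each step larger than the SDs of the 2 neighbors together. GSY1, TSL1 and GDB1 stood close to each other at 125 ± 9.07, 123 ± 15.1 and 113 ± 8.60 CPM per kb, with GSY1 and TSL1, and TSL1 and GDB1, not separated by that measure. The trehalases were lowest, NTH1 at 93.7 ± 4.05 and ATH1 at 46.7 ± 3.74 CPM per kb. The order differed in F45 of the second batch, where GPH1 at 512 ± 7.82 lay above GLC3 at 349.5 ± 4.69 CPM per kb (SD, n = 3). GSY1 was there at 51.4 ± 7.05, below NTH1 at 88.9 ± 1.43 CPM per kb. GDB1 at 80.9 ± 8.23 CPM per kb was not separated from NTH1 by the measure used above.

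**Figure D2:**
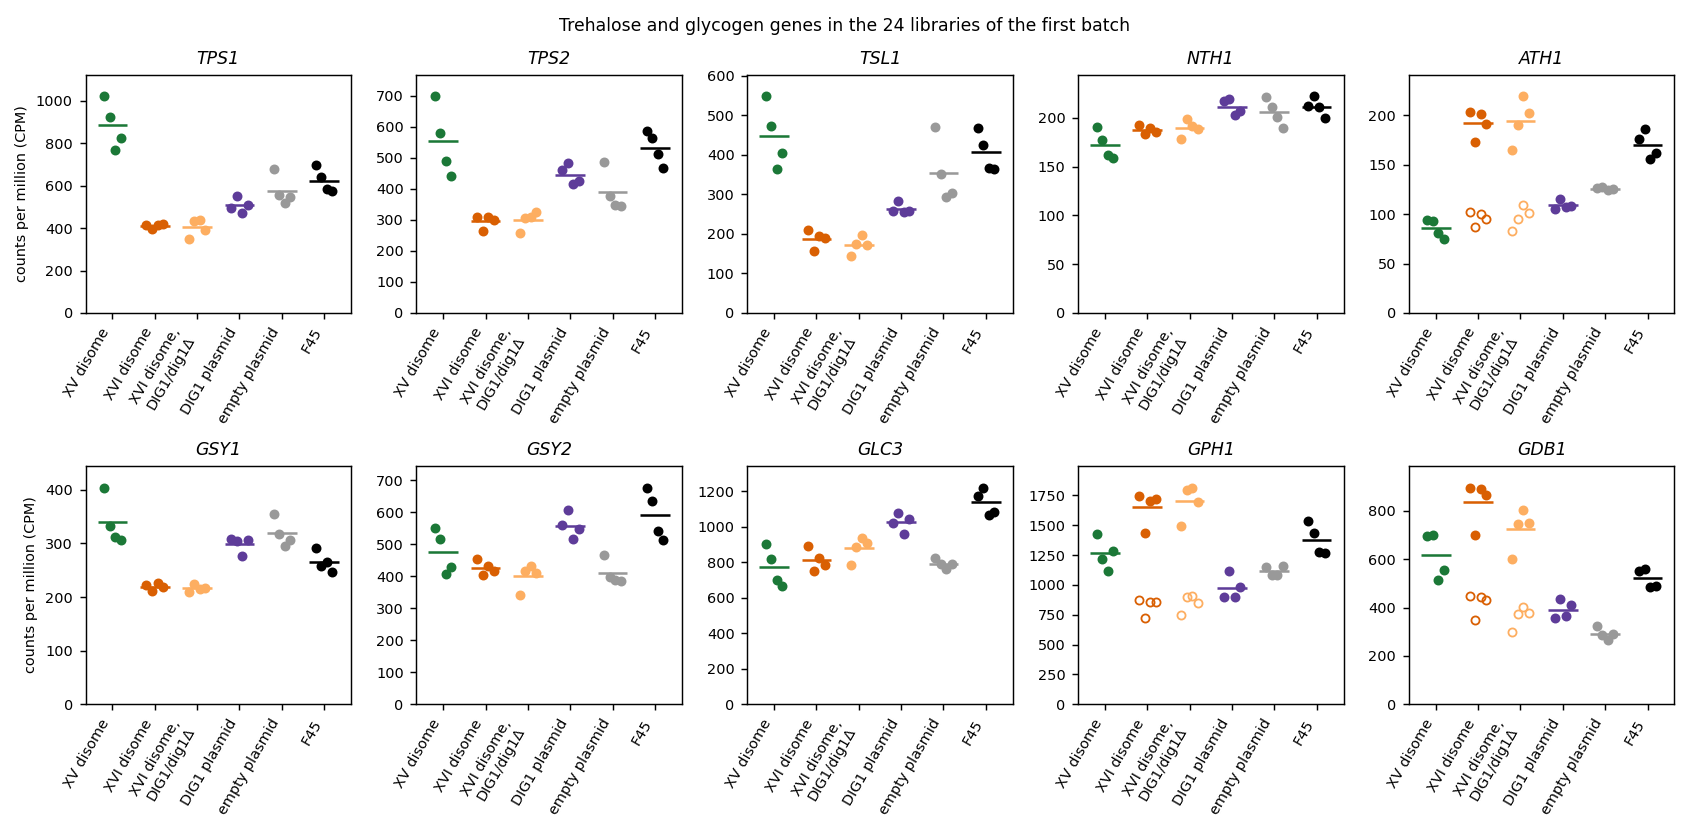
CPM of each member in the 24 libraries of the first batch, with a point for each library and a line at the group mean. Open circles give the CPM per copy for the 3 genes on chromosome XVI in strains with 2 copies. In the XVI disome TSL1 lay between 158 and 210 CPM, below all 4 F45 libraries, while in the XV disome TPS1 lay above them.

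The XVI disome was compared with euploid F45 to ask which genes change when that chromosome is doubled. Genes of both pathways were lower per copy. With calls made at an adjusted p below 0.01, 8 of the 10 members fell and none rose, against 24.4% of all tested features lower, 21.6% higher and 46% in either direction. The median log2 fold change of the members was -0.54, beside -0.02 over all tested features. All 3 trehalose synthesis genes fell, as did all 3 glycogen synthesis genes.

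TSL1, the regulatory subunit gene, had 210.3, 158, 194 and 190.3 CPM in the XVI disome, against 469, 424, 367 and 364 CPM in F45. It was thus more than 2-fold lower (-1.11 ± 0.13 (SE) on the log2 scale, adjusted p = 5.12e-08), and the libraries did not overlap. The phosphatase gene TPS2 had 309.5, 263, 309.7 and 298 CPM in the disome, against 585, 563, 512.5 and 467 CPM in F45 (-0.85 ± 0.12 (SE) on the log2 scale, adjusted p = 5.92e-07). The synthase gene TPS1 had 416, 394, 415 and 418 CPM in the disome, against 698.5, 639.7, 585 and 573 CPM in F45 (-0.60 ± 0.09 (SE) on the log2 scale, adjusted p = 3.29e-06). The ratio of TSL1 to TPS1 per length was 0.206 ± 0.0196 in the disome and 0.293 ± 0.00946 in F45 (SD, n = 4 each).

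The glycogen synthesis genes had log2 fold changes of -0.48 to -0.27. GLC3, the branching enzyme gene, had 891, 751, 825 and 786 CPM in the disome, against 1175, 1222, 1068 and 1085 CPM in F45 (log2 fold change -0.48 ± 0.08 (SE), adjusted p = 1.3e-05). GSY2, the main glycogen synthase gene, changed by -0.47 ± 0.10 (SE, adjusted p = 0.000155) and GSY1 by -0.27 ± 0.07 (SE, adjusted p = 0.00261) on the log2 scale. The GSY1 call was lost without F45 library 1 (-0.23, adjusted p = 0.017).

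The genes on chromosome XVI itself differed between total transcript and transcript per copy. ATH1 had 203, 173, 201 and 191 CPM in the disome, against 176, 186, 156 and 162 CPM in F45, so that its total level was not called different (0.18 on the log2 scale, adjusted p = 0.05) while its level per copy fell by 0.82 (adjusted p = 7.76e-10). GPH1 had 1743, 1439, 1707 and 1719 CPM in the disome, against 1532, 1434, 1279 and 1269 CPM in F45, with a log2 fold change of 0.26 in total (adjusted p = 0.0121) and -0.74 ± 0.09 (SE) per copy (adjusted p = 6.2e-08). The totals of both genes were thus less than doubled in the disome. GDB1 had 897, 699.8, 890.5 and 866 CPM in the disome, against 552, 559.9, 487 and 487 CPM in F45, and its total was higher by 0.68 on the log2 scale (adjusted p = 2.21e-06). Per copy GDB1 did not pass the threshold (-0.32 ± 0.10 (SE), adjusted p = 0.0105), although it did with the likelihood ratio test (0.0069) and DESeq2 (0.00763). NTH1, on chromosome IV, was not called (-0.17 ± 0.06 (SE) on the log2 scale, adjusted p = 0.0179).

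The hemizygous strain was sequenced to ask how much of the disome's profile depends on its second DIG1 copy. None of the 10 members was called different between the hemizygous strain and the XVI disome, against 9.76% of all tested features higher, 10.4% lower and 20.2% in either direction, and none had an unadjusted p under 0.05. The likelihood ratio test and DESeq2 called none either. The log2 fold changes lay between -0.21 (GDB1, 95% interval -0.41 to -0.01) and 0.11 (GLC3, 95% interval -0.05 to 0.27). For TSL1 the 95% interval was -0.39 to 0.13 and for TPS1 it was -0.21 to 0.15. These intervals use the normal quantile and are not adjusted for the number of features.

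Relative to F45, 9 of the 10 members were lower per copy in the hemizygous strain and none was higher, against 27% and 22.9% of all tested features, or 49.9% together. This comparison shares its F45 libraries with that of the full disome. TSL1 had 144, 175, 196 and 172 CPM in the hemizygous strain, against 469, 424, 367 and 364 CPM in F45 (-1.24 ± 0.13 (SE) on the log2 scale, adjusted p = 8.06e-09). GDB1, not called in the full disome, fell per copy in the hemizygous strain (-0.52 ± 0.10 (SE), adjusted p = 8.67e-05), with a total change of 0.48 (adjusted p = 0.000243). The difference in GDB1 between both XVI disomes was itself not called (adjusted p = 0.129). The totals of ATH1 (0.19, adjusted p = 0.033) and GPH1 (0.30, adjusted p = 0.00406) were positive. GSY1 was called lower (-0.29 ± 0.07 (SE), adjusted p = 0.00156), but not without F45 library 1 (-0.24, adjusted p = 0.0108). NTH1 was again the member left uncalled (-0.16 ± 0.06 (SE), adjusted p = 0.0243).

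In the XV disome the members moved in both directions relative to F45. TPS1 and GSY1 rose and NTH1, ATH1, GSY2 and GLC3 fell, which makes 2 members higher and 4 lower, against 23.1% and 28.2% of all tested features. The share of members called, 6 of 10, was near the 51.4% of all tested features called in either direction. The median log2 fold change of the members was -0.04, beside -0.05 over all tested features.

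TPS1 had 1022, 923, 767.5 and 824 CPM in the XV disome, against 698.5, 639.7, 585 and 573 CPM in F45, without overlap (0.50 ± 0.09 (SE) on the log2 scale, adjusted p = 3.08e-05). The other 2 subunits did not pass the test: TPS2 was at 0.05 ± 0.12 (SE, adjusted p = 0.712) and TSL1 at 0.14 ± 0.13 (SE, adjusted p = 0.355) on the log2 scale. Both trehalase genes fell. ATH1, with 1 copy in this strain, had 94.2, 93.0, 81.0 and 75.1 CPM in the disome, against 176, 186, 156 and 162 CPM in F45, close to a 2-fold decrease (-0.99 ± 0.08 (SE), adjusted p = 2.44e-11). NTH1 had 191, 177, 162 and 159 CPM in the disome, against 212, 222, 211 and 200 CPM in F45 (-0.30 ± 0.06 (SE), adjusted p = 0.000106), a small decrease without overlap.

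The glycogen synthases diverged in this strain. GSY1 had 404.5, 333, 313 and 307 CPM in the XV disome, against 292, 259, 265 and 246 CPM in F45 (0.35 ± 0.07 (SE) on the log2 scale, adjusted p = 0.000179). GSY2 had 552, 517, 408.5 and 429.9 CPM in the disome, against 678, 634.5, 543 and 512 CPM in F45 (-0.31 ± 0.10 (SE), adjusted p = 0.0066), and these libraries overlapped. The GSY2 call was lost without F45 library 1 (-0.24, adjusted p = 0.0413) or 2 (-0.28, adjusted p = 0.0263), without disome library 3 (-0.25, adjusted p = 0.0378) or 4 (-0.27, adjusted p = 0.0287), and in a fit to only these groups (-0.31, adjusted p = 0.0313). GLC3 fell, with 905, 817, 698 and 668 CPM in the disome, against 1175, 1222, 1068 and 1085 CPM in F45 (-0.56 ± 0.08 (SE), adjusted p = 1.19e-06). The breakdown genes were not called, GPH1 at -0.13 ± 0.09 (SE, adjusted p = 0.22) and GDB1 at 0.24 ± 0.10 (SE, adjusted p = 0.0452).

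Set directly against each other, the disomes had their largest differences per copy in the 3 trehalose synthesis genes. In the XVI disome 6 members were lower than in the XV disome and none was higher, against 19.4% and 19.7% of all tested features, or 39.1% together. TSL1 (-1.25 ± 0.13 (SE) on the log2 scale, adjusted p = 7.95e-09), TPS1 (-1.10 ± 0.09 (SE), adjusted p = 1.12e-10) and TPS2 (-0.90 ± 0.12 (SE), adjusted p = 2.94e-07) were all about 2-fold lower. GSY1 was lower by 0.63 on the same scale. Per copy GPH1 and GDB1 were also lower in the XVI disome, at -0.61 and -0.56, but in total they were higher, at 0.39 (adjusted p = 0.000431) and 0.44 (adjusted p = 0.000544). GLC3, GSY2, NTH1 and ATH1 per copy were not called, with 95% intervals of -0.08 to 0.24, -0.35 to 0.03, 0.01 to 0.25 and 0.01 to 0.33. In total, ATH1 was higher in the XVI disome (1.17, adjusted p = 3.38e-13).

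**Figure D3:**
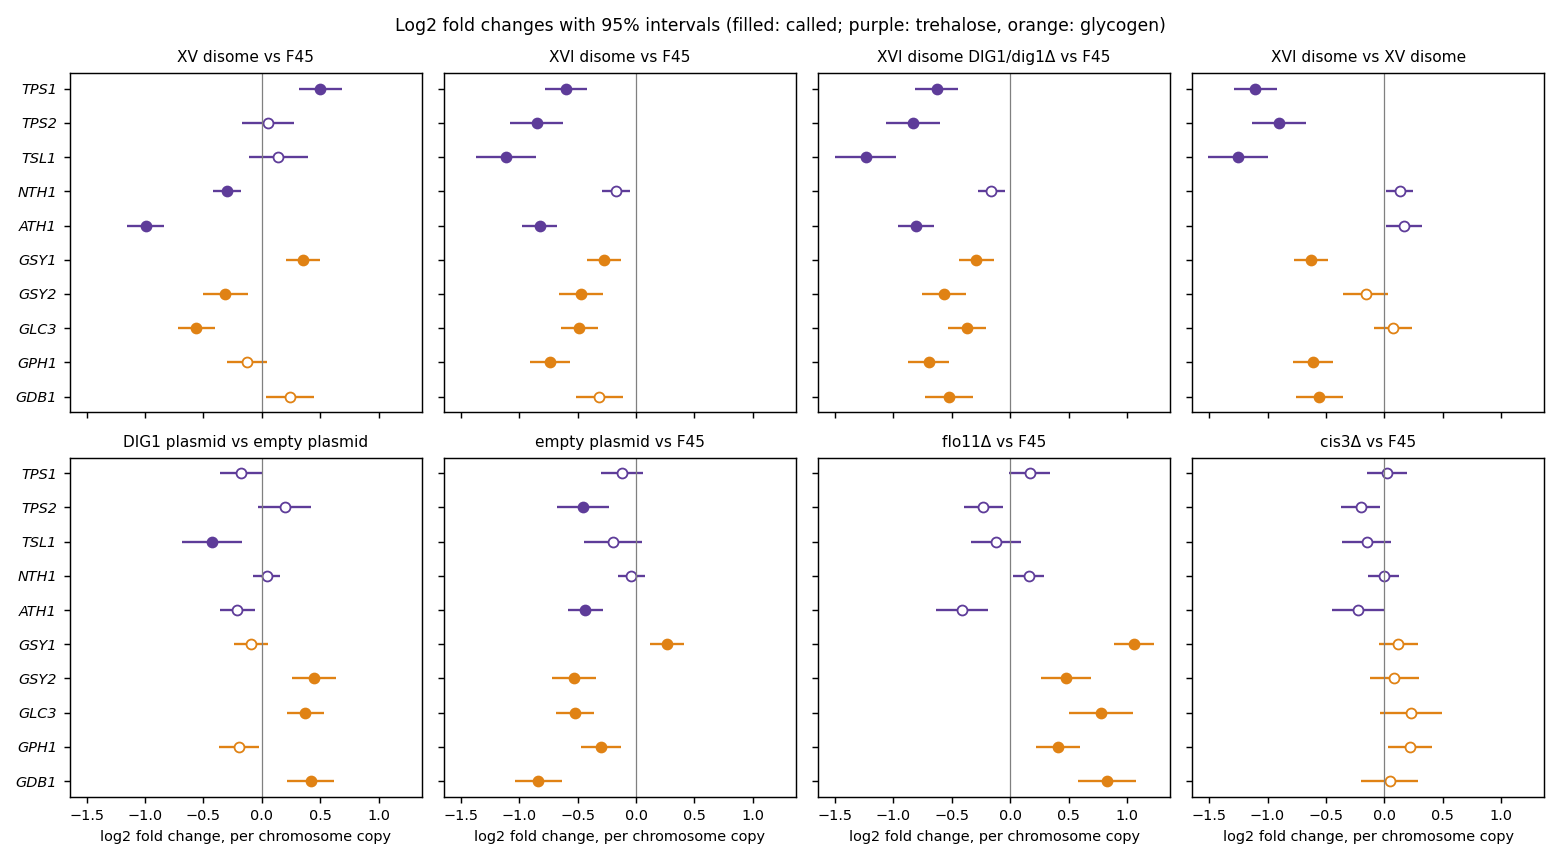
Log2 fold changes of the members per chromosome copy in 8 of the comparisons, with 95% intervals, where filled points passed an adjusted p under 0.01, purple marks trehalose genes and orange marks glycogen genes. All 10 points lie left of 0 for the XVI disome against F45, and the 5 glycogen genes lie right of 0 for flo11Δ against F45.

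Transcripts of both syntheses were compared as a ratio of summed CPM per kb. The numerator held GSY1, GSY2 and GLC3 and the denominator TPS1, TPS2 and TSL1, none of which lies on a doubled chromosome. This ratio was 0.803 ± 0.0185 in the XV disome, 1.55 ± 0.0517 in the XVI disome and 1.63 ± 0.0536 in the hemizygous strain, against 1.27 ± 0.0372 in F45 (SD, n = 4 each). The 4 libraries of the XV disome lay below all other libraries of the batch, and those of both XVI disomes lay above all F45 libraries. The ratio was 1.52 ± 0.0307 in the DIG1 plasmid strain, against 1.14 ± 0.0955 in the empty plasmid strain. In the second batch it was 1.72 ± 0.0994 in flo11Δ and 1.26 ± 0.220 in cis3Δ, against 1.07 ± 0.0204 in F45. The cis3Δ clones differed, with 1.537 and 1.339 in the first and 1.045 and 1.133 in the second, against 1.045 to 1.083 in F45. These ratios are a description of the members' transcripts and were not tested. In F45 of the first batch GLC3 and TPS1, at 538 and 419 CPM per kb, were the largest terms of the 2 sums. Enzymes and carbohydrates were not measured.

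**Figure D4:**
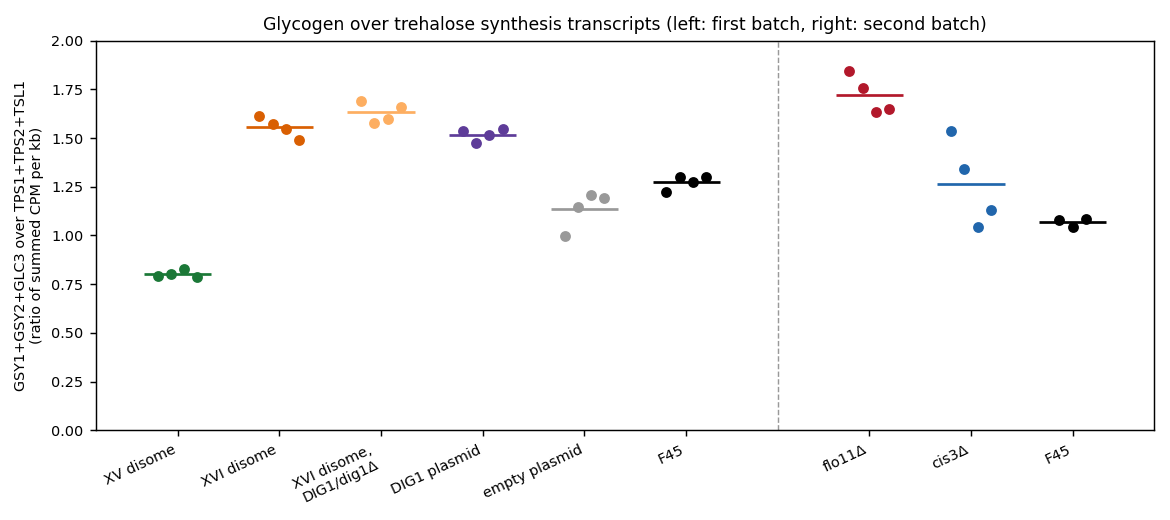
Ratio of summed CPM per kb of the glycogen synthesis genes over the trehalose synthesis genes in each library, with a line at the group mean and the batches separated by a dashed line. In the first batch the XV disome lies lowest, with a mean of 0.803, and in the second batch flo11Δ has the highest mean, at 1.72.

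DIG1 on a plasmid in euploid F45 was compared with the empty plasmid to ask what a rise of DIG1 alone does. The strain list gives these plasmids different names, so a part of their backbones in the differences was not tested. GSY2, GLC3 and GDB1 rose and TSL1 fell, which makes 3 members higher and 1 lower, against 12.7% and 15.2% of all tested features, or 27.9% together. GSY2 had 562, 607, 517 and 547 CPM with the DIG1 plasmid, against 466, 399, 389 and 385.5 CPM with the empty plasmid (0.45 ± 0.10 (SE) on the log2 scale, adjusted p = 0.00055). GLC3 had 1020, 1076, 962 and 1043 CPM with the DIG1 plasmid, against 826, 788, 763 and 789 CPM with the empty plasmid (0.37 ± 0.08 (SE), adjusted p = 0.000581). Neither gene's libraries overlapped between the strains.

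GDB1 had 355, 434, 365 and 409 CPM with the DIG1 plasmid, against 324, 288.1, 267 and 289 CPM with the empty plasmid (0.42 ± 0.10 (SE), adjusted p = 0.00194). Without DIG1 plasmid library 2 (0.36, adjusted p = 0.0114) or empty plasmid library 3 (0.38, adjusted p = 0.0103) it was not called. TSL1 had 259, 284, 254 and 257 CPM with the DIG1 plasmid, against 471, 350.2, 293 and 302 CPM with the empty plasmid (-0.43 ± 0.13 (SE), adjusted p = 0.00962). Empty plasmid library 1 was higher than the other 3. Without it the log2 fold change of TSL1 was -0.25 (adjusted p = 0.095), and the call was also lost without empty plasmid library 2 or without any one of the 4 DIG1 plasmid libraries (adjusted p from 0.0123 to 0.0264). ATH1 did not overlap between the strains but was not called (-0.21 ± 0.08 (SE), adjusted p = 0.0326).

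The empty plasmid itself was accompanied by lower levels. Relative to plasmid-free F45, 6 members were lower and 1 was higher, against 20.2% and 19.3% of all tested features, or 39.5% together. The debrancher GDB1 fell most, with 324, 288.1, 267 and 289 CPM in the empty plasmid strain, against 552, 559.9, 487 and 487 CPM in F45 (-0.84 ± 0.10 (SE) on the log2 scale, adjusted p = 1.8e-07). GSY2 (-0.53 ± 0.10 (SE), adjusted p = 4.61e-05), GLC3 (-0.52 ± 0.08 (SE), adjusted p = 5.65e-06), TPS2 (-0.45 ± 0.12 (SE), adjusted p = 0.00168) and ATH1 (-0.43 ± 0.08 (SE), adjusted p = 2.99e-05) fell as well. GPH1 fell by 0.30 (adjusted p = 0.00537), a call lost in 4 of the 8 fits that left out a library (F45 library 1 or 2, empty plasmid library 2 or 3, adjusted p from 0.0168 to 0.0312). GSY1 was the member that rose (0.27 ± 0.07 (SE), adjusted p = 0.0037), a call lost in 3 of the 8 (F45 library 2 or 4, empty plasmid library 1, adjusted p from 0.0133 to 0.0211). The levels of GSY2 and GLC3 with the DIG1 plasmid, at 558 ± 37.4 and 1025 ± 48.0 CPM, thus lay between those with the empty plasmid (410 ± 37.7 and 791.5 ± 25.9) and those of F45 (592 ± 77.2 and 1138 ± 73.3, SD, n = 4 each), and the differences from F45 were smaller than the SDs together.

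Whether the XVI disome and the DIG1 plasmid shifted the members alike was tested as the difference of both log2 fold changes. Each change was taken from its own control, so the step from F45 to the empty plasmid strain enters this difference. That step was called lower for 6 members, with -0.84 for GDB1, -0.53 for GSY2, -0.52 for GLC3 and -0.45 for TPS2, and higher for 1 (GSY1, 0.27). How much of each difference it makes up was not tested. The change in the disome was called more negative for 8 of the 10 members, against 17.4% of all tested features in this direction, 16.2% in the other and 33.6% in both. The difference was -1.05 ± 0.16 (SE) for TPS2 (adjusted p = 8.69e-06), -0.92 ± 0.14 for GSY2 (adjusted p = 4.44e-06) and -0.86 ± 0.12 for GLC3 (adjusted p = 9.83e-07). These members were lower in the disome than in F45, whereas with the DIG1 plasmid GSY2 and GLC3 rose and TPS2 was at 0.20 ± 0.12 (SE, adjusted p = 0.181). For TSL1, lower in both comparisons, the difference was -0.68 ± 0.18 (SE, adjusted p = 0.00324). That call was lost without F45 library 1 (adjusted p = 0.0102) or disome library 2 (adjusted p = 0.01). TPS1 was at the limit (-0.42 ± 0.13 (SE), adjusted p = 0.00933), and 12 of the 16 fits without a library did not call it (adjusted p up to 0.0284). In total transcript the 3 genes of chromosome XVI had differences of the other sign, at 0.39 for ATH1 (adjusted p = 0.00454), 0.46 for GPH1 (adjusted p = 0.00318) and 0.27 for GDB1 (adjusted p = 0.136).

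Deletion of FLO11, which encodes the flocculin needed for fluffy colonies, was compared with F45 at the same karyotype. In the paper, cis3Δ colonies lose their structure too, and the XV disome, the XVI disome and the DIG1 plasmid strain are smooth. The paper treats cis3Δ as the cleaner measure of the smooth state, and proposes that the flo11Δ profile is more than a response to that state. Whether colony structure bears on the members was not tested. All 5 glycogen genes rose in flo11Δ and none of the 5 trehalose genes was called. The 5 called members compare with 12.4% of all tested features higher, while none was lower, against 13%, and 25.4% were called in either direction. The median log2 fold change was 0.78 for the glycogen synthesis genes and 0.62 for the glycogen breakdown genes, beside -0.12 for trehalose synthesis, -0.13 for trehalose breakdown and -0.04 over all tested features.

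GSY1 had 216, 237, 237 and 223.5 CPM in flo11Δ, against 126, 96.3 and 106 CPM in F45, a 2.09-fold increase (1.06 ± 0.09 (SE) on the log2 scale, adjusted p = 3.24e-06). GDB1 had 662, 695, 682 and 619 CPM in flo11Δ, against 400.1, 329.7 and 389.5 CPM in F45 (0.83 ± 0.13 (SE), adjusted p = 0.000214). GLC3 had 1299, 1337, 1232 and 1200 CPM in flo11Δ, against 731.5, 736 and 750.4 CPM in F45 (0.78 ± 0.14 (SE), adjusted p = 0.000641). In all 3 every flo11Δ library lay above every F45 library, and each clone taken alone gave the same call.

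GSY2 had 632, 702, 627 and 569.6 CPM in flo11Δ, against 434.5, 460.2 and 468.5 CPM in F45 (0.48 ± 0.11 (SE), adjusted p = 0.00342), and GPH1 had 1856, 1926, 1820 and 1782 CPM in flo11Δ, against 1405, 1395 and 1365 CPM in F45 (0.41 ± 0.10 (SE), adjusted p = 0.00409). These calls were less firm. The second clone alone gave 0.40 for GSY2 (adjusted p = 0.0146) and 0.38 for GPH1 (adjusted p = 0.0126). GSY2 was also lost without F45 library 1 or 2 or flo11Δ library 2 (adjusted p from 0.0121 to 0.0165), and GPH1 without any F45 library or without flo11Δ library 1, 2 or 3 (adjusted p from 0.0108 to 0.0193), with 3 members then called where both were lost.

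Among the trehalose genes, ATH1 had 113, 126.5, 119 and 107 CPM in flo11Δ, against 141, 157 and 166.5 CPM in F45, without overlap and just short of the threshold (-0.41 ± 0.11 (SE), adjusted p = 0.0109). It passed with the likelihood ratio test (0.00319) and DESeq2 (0.00379). TPS1 (0.17 ± 0.09 (SE), adjusted p = 0.156), TPS2 (-0.23 ± 0.08 (SE), adjusted p = 0.0438) and TSL1 (-0.12 ± 0.11 (SE), adjusted p = 0.41) were not called, with 95% intervals of -0.01 to 0.34, -0.40 to -0.07 and -0.33 to 0.09.

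**Figure D5:**
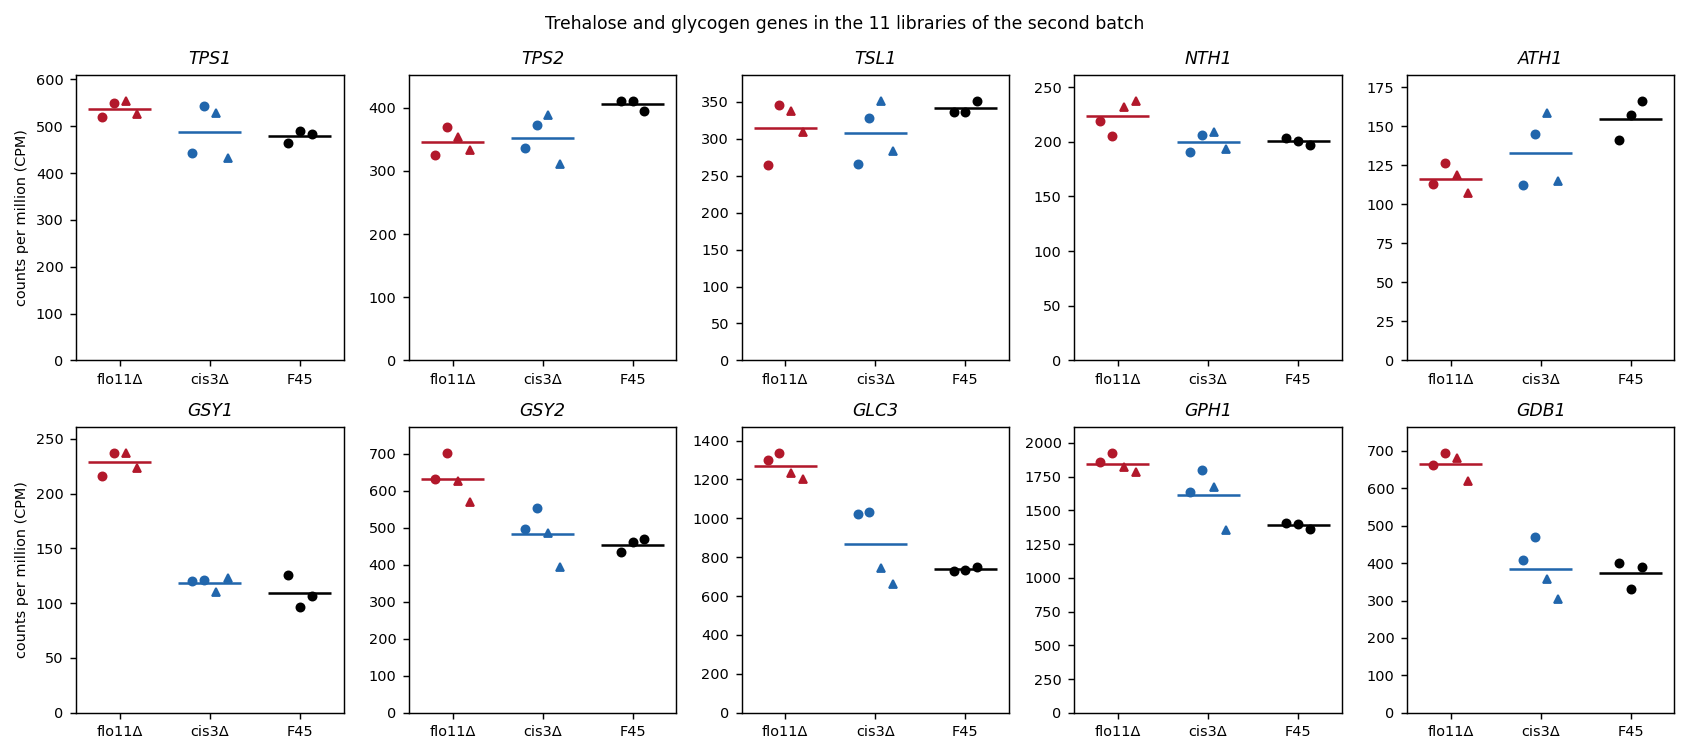
CPM of each member in the 11 libraries of the second batch, with a point for each library, circles and triangles for the 2 clones of each deletion, and a line at the group mean. The 5 glycogen genes of the lower row are higher in flo11Δ than in F45, and GLC3 in cis3Δ splits by clone.

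In cis3Δ, which lacks a glycoprotein of the cell wall, none of the 10 members was called relative to F45, and 0.136% of all tested features were higher, 0.186% lower and 0.323% called in either direction. TPS2 and GPH1 had an unadjusted p under 0.05 (2 of 10), and the likelihood ratio test and DESeq2 called none. GLC3 differed between the clones, with 1021, 1033, 745 and 664 CPM in the 4 cis3Δ libraries, the first 2 from 1 clone, against 731.5, 736 and 750.4 CPM in F45. The first clone alone was higher than F45 (0.47 ± 0.08 (SE) on the log2 scale, adjusted p = 0.00742), where 1.16% of all tested features were called, and the second was not (-0.07 ± 0.08 (SE), adjusted p = 0.714). The difference between both clones was -0.54 ± 0.09 (SE, adjusted p = 0.0137) and so not called.

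Between both deletions, GSY1, GSY2, GLC3 and GDB1 were higher in flo11Δ than in cis3Δ, 4 members against 12.8% of all tested features, and none was lower, against 12.7%, with 25.5% called in either direction. GSY1 had 216, 237, 237 and 223.5 CPM in flo11Δ, against 120.3, 121, 110.5 and 123 CPM in cis3Δ (0.94 ± 0.08 (SE), adjusted p = 7.21e-06), and GDB1 differed by 0.79 ± 0.12 (SE, adjusted p = 0.000207). GLC3 (0.55 ± 0.13 (SE), adjusted p = 0.00364) was not called without cis3Δ library 3 or flo11Δ library 1 or 2 (adjusted p from 0.0117 to 0.0155). GSY2 (0.39 ± 0.10 (SE), adjusted p = 0.00702) was not called in 6 of the 8 fits without a library (cis3Δ library 1, 3 or 4, flo11Δ library 1, 2 or 3, adjusted p from 0.012 to 0.0268), and 2 members remained called where both were lost.

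A list of 35 further genes of these pathways, from hexokinases to regulators of glycogen synthase, was counted in the same way. In the XV disome 11 of the 35 were higher and 9 lower than in F45, where 51.4% of all tested features were called in either direction. In the XVI disome 6 were higher and 13 lower, where 46% of all tested features were called, and in the hemizygous strain 7 and 15, where 49.9% were. With the DIG1 plasmid 4 were higher and 5 lower than with the empty plasmid, where 27.9% of all tested features were called. In flo11Δ 8 were higher and 6 lower than in F45, where 25.4% were called, and in cis3Δ none was called, where 0.323% were. These counts describe the list and nothing particular to it was read from them. Of the 35, GLG2, SGA1, PIG2, GAC1, PGM2 and GLK1 were called with more than a 2-fold change in at least 1 comparison. GLG2, which encodes a glycogenin that starts the glycogen chain, averaged 100.3 ± 11.99 CPM in the XV disome, against 48.0 ± 1.21 CPM in F45 (1.05 ± 0.07 (SE) on the log2 scale, adjusted p = 2.84e-13). SGA1, which encodes a glucoamylase of sporulating cells, averaged 12.3 ± 0.949 CPM in the same disome, against 30.9 ± 0.615 CPM in F45 (-1.34 ± 0.10 (SE), adjusted p = 5.91e-12).

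PIG2, which encodes a candidate targeting subunit of the phosphatase Glc7 that activates glycogen synthase, averaged 163.5 ± 14.2 CPM in the XVI disome and 225 ± 12.3 CPM in the hemizygous strain, against 77.5 ± 3.03 CPM in F45 (SD, n = 4 each). PIG2 therefore rose in both, by 1.07 ± 0.07 (SE, adjusted p = 8.89e-13) and 1.54 ± 0.07 (SE, adjusted p = 4.5e-16) on the log2 scale, and was also higher in the hemizygous strain than in the full disome (0.46 ± 0.07 (SE), adjusted p = 1.45e-05). GAC1, another Glc7 targeting subunit gene, averaged 184 ± 22.6 CPM in the hemizygous strain, against 382 ± 28.3 CPM in F45 (-1.05 ± 0.15 (SE), adjusted p = 8.56e-07). PGM2, which encodes the main phosphoglucomutase, averaged 245 ± 10.4 CPM in the XVI disome, against 504 ± 41.0 CPM in the XV disome (-1.04 ± 0.08 (SE), adjusted p = 3.24e-11). Between the same disomes GLG2 was at -1.42 ± 0.07 (SE, adjusted p = 2.41e-15) and PIG2 at 1.22 ± 0.07 (SE, adjusted p = 1.41e-13). In flo11Δ the glucokinase gene GLK1 averaged 9314 ± 706 CPM, against 4655 ± 165 CPM in F45 (1.00 ± 0.15 (SE), adjusted p = 0.00024).

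The annotation also places transcripts on the strand opposite to 5 members, and counts were assigned by strand. ST4523 covers all of GLC3 on the opposite strand. It averaged 3.35 CPM in F45 and was higher in the XVI disome, with 6.48, 6.95, 6.90 and 5.23 CPM, against 3.48, 3.87, 3.30 and 2.75 CPM in F45 (0.94 ± 0.18 (SE) on the log2 scale, adjusted p = 5.54e-05). ST4523 was also higher in the hemizygous strain than in F45 (0.68 ± 0.19 (SE), adjusted p = 0.00329) and was not called in the XV disome (-0.53 ± 0.22 (SE), adjusted p = 0.0379). GLC3 itself was called lower than in F45 in all 3 strains. ST6019, which overlaps 736 of the 2118 bases of GSY2 on the opposite strand, was higher than in F45 in the XV disome (1.12 ± 0.28 (SE), adjusted p = 0.00117), the XVI disome (0.92 ± 0.28 (SE), adjusted p = 0.00621) and the hemizygous strain (1.22 ± 0.29 (SE), adjusted p = 0.000599), from 7 to 37 counts in a library of these strains and F45. In the empty plasmid strain GLC3 (-0.52) and GSY2 (-0.53) were called lower than in F45 too. There ST4523 (0.14 ± 0.18 (SE), adjusted p = 0.537) and ST6019 (0.56 ± 0.27 (SE), adjusted p = 0.0847) were not called. SUT2160.1, opposite to TSL1 with 1 to 54 counts in a library of the batch, was called higher there (1.33 ± 0.32 (SE), adjusted p = 0.000868). TSL1 itself was not called (adjusted p = 0.211). Whether these transcripts bear on the levels of GLC3, GSY2 and TSL1 was not tested.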

How the data were processed

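The deposited tables hold raw counts of read pairs, which the authors aligned by Bowtie2 2.1.0 against the reference genome R64-1-1 with added non-reference genes, and assigned by strand to features with featureCounts (version 1.4.0), without a filter on mapping quality. Reads had 51 bases (batch 1) or 75 bases (batch 2). Columns were tied to strains through the study's strain list.

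The batches were fitted separately with edgeR 4.0.16 in R 4.3.3 (quasi-likelihood test, two-sided) after filterByExpr, which kept 8097 and 8059 of 12131 features. TMM factors and library sizes came from nuclear ORFs, and those of the doubled chromosomes (XV, XVI) were left out for batch 1. An offset for 2 copies was applied to genes of a doubled chromosome. CPM values use the library sizes times the TMM factors, without that offset. Adjustment was by Benjamini-Hochberg over every feature tested, and a call is an adjusted p under 0.01. SE is the log2 fold change divided by the square root of F, and 95% intervals use the normal quantile. The scripts were tested on simulated data, whose dispersion was reset to that of the libraries after a first run with a guessed dispersion recovered too few changed genes. No identical libraries were found.

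The members, the 35 pathway genes and the motif were chosen with earlier results of these data known. Named besides the members are pathway genes called with more than a 2-fold change, the 5 ORFs most similar to the members, and the targeted genes. ST4523, ST6019, SUT2160.1, TPS3 and NTH2 were named after their values were seen. Libraries are numbered as in the column headers. By these numbers all 4 pairs of XV disome and F45 libraries deviated together (r from 0.245 to 0.292), though the labels state no such pairing. The values given for the XV disome against F45 come from fits that did not use this pairing. An alternative fit with the numbers as a replicate block changed no member's call in that comparison. Alternatives were the likelihood ratio test, DESeq2 1.42.0, other scalings and filters, the replicate block, no copy number adjustment, a fit to only the groups compared, leaving out each library and, chosen after seeing the data, centring on the median ORF and the clones taken singly.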

Additional observations from a re-analysis of the deposited data

Results flagged for a closer look

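In groups of 4 libraries, 6 of 80 tests found a library apart from the other 3, where chance alone gives about 1 in 20. Library 2 of the XVI disome was low for TPS1 (394 CPM, against 415 to 418 in the others), GPH1 (1439 CPM, against 1707 to 1743) and GDB1 (699.8 CPM, against 866 to 897). Without it, the log2 fold changes relative to F45 were -0.58 for TPS1, -0.68 for GPH1 and -0.24 for GDB1 (adjusted p = 2.79e-05, 7.71e-07 and 0.0586), so that each stayed on its side of the threshold. With the DIG1 plasmid, TSL1 was high in library 2 (283.6 CPM, against 254 to 259) and GSY1 low in library 3 (276.6 CPM, against 305 to 307.5). In the empty plasmid strain GSY2 was high in library 1 (465.8 CPM, against 385.5 to 399), and without it the fold change of the DIG1 plasmid over the empty plasmid was 0.52 (adjusted p = 0.000166).

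The effect of one strain differed from that of another for several members, by a test of the difference itself. Between the XVI and XV disomes the log2 difference was -1.10 for TPS1, -0.90 for TPS2, -1.25 for TSL1, -0.63 for GSY1, -0.61 for GPH1 and -0.56 for GDB1. Between the effect of the XVI disome and that of the DIG1 plasmid it was -0.42 for TPS1, -1.05 for TPS2, -0.68 for TSL1, -0.61 for ATH1, -0.92 for GSY2, -0.86 for GLC3, -0.54 for GPH1 and -0.73 for GDB1. Between flo11Δ and cis3Δ it was 0.94 for GSY1, 0.39 for GSY2, 0.55 for GLC3 and 0.79 for GDB1. The disomes share F45 as their comparison, as do the deletions, so their differences are those between the strains themselves. The effects of the XVI disome and of the DIG1 plasmid have different controls, so the change from F45 to the empty plasmid strain enters their difference.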

How the results depend on the processing

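Of 110 values (10 members in 11 comparisons), 11 changed sign with a call in either fit, all under no copy number adjustment and all for genes on chromosome XVI. Without it, ATH1, GPH1 and GDB1 were at 0.18, 0.26 and 0.68 for the XVI disome against F45, and at 0.19, 0.30 and 0.48 for the hemizygous strain against F45. For the XVI disome effect against the DIG1 plasmid effect they were at 0.39, 0.46 and 0.27, and GPH1 and GDB1 were at 0.39 and 0.44 for the XVI against the XV disome. The number of members called moved by over 1.5 times with the clones taken singly, to 1 for the first cis3Δ clone, where all libraries gave 0, and to 3 for the second flo11Δ clone, where all gave 5. Leaving out single libraries gave 2 to 4 members for the DIG1 plasmid against the empty plasmid, 3 to 5 for flo11Δ against F45 and 2 to 4 for flo11Δ against cis3Δ. The replicate block gave 6 members in place of 5 for flo11Δ against F45 (ATH1, adjusted p = 0.00395) and changed no other call. In the comparisons other than the XV disome against F45, at least 1 pair had an r of 0.057 or less. TMM factors on total counts shifted the median of all features to -0.13 for the XV disome and the hemizygous strain against F45. Over all features, cis3Δ against F45 gave 26 calls, and 186 with the likelihood ratio test, 315 with DESeq2, 17 with the replicate block, 4 with only the groups compared, and 96 and 11 for its clones, while the first flo11Δ clone gave 1366, against 2051 with both. Intervals and p-values rest on 3 or 4 libraries per group and cover no variation between isolates.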

Other observations

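Over the 24 libraries of the first batch, the 5 ORFs whose log2 levels followed the mean of the 10 members most closely were UBX6 (Pearson r = 0.954), RTN2 (r = 0.942), UGP1 (r = 0.938), HXT5 (r = 0.938) and HBT1 (r = 0.934), of 5913 ORFs compared. These correlations are descriptions over libraries that share their groups. UGP1 encodes the enzyme that makes the UDP-glucose that both pathways use, HXT5 encodes a hexose transporter and RTN2 a reticulon. HXT5 averaged 320 CPM in the XVI disome, 264 CPM in the hemizygous strain and 1324 CPM in the XV disome, against 1949 CPM in F45. It was also below F45 in the euploid plasmid strains, at 483.5 CPM with the empty plasmid and 750.6 CPM with the DIG1 plasmid. RTN2 averaged 231 CPM in the XVI disome, 279 CPM in the hemizygous strain and 772 CPM in the XV disome, against 905 CPM in F45. With the empty plasmid RTN2 was at 495.5 CPM and with the DIG1 plasmid at 436 CPM. Of the members themselves, TPS2 followed the mean of the other 9 most closely (r = 0.959), then GPH1 (r = 0.915), and NTH1 least (r = 0.30).

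The proportion of members to their paralogs differed from F45 in some strains and stayed near it in others. The ratio of TSL1 to TPS3, both regulatory subunits of the trehalose complex, was 1.33 ± 0.158 per length in the XVI disome, against 3.27 ± 0.261 in F45 (SD, n = 4 each), and TPS3 itself was at 0.20 ± 0.08 (SE) on the log2 scale (adjusted p = 0.028). The ratio of NTH1 to NTH2 was 3.87 ± 0.0847 in the XV disome, against 2.64 ± 0.0510 in F45, and NTH2 fell there by 0.86 (adjusted p = 8.01e-11). In the XVI disome and the hemizygous strain that ratio was near F45, at 2.69 ± 0.1415 and 2.63 ± 0.226. The ratio of GSY1 to GSY2 was 0.776 ± 0.0193 in the empty plasmid strain and 0.711 ± 0.0509 in the XV disome, against 0.450 ± 0.0385 in F45. It was 0.361 ± 0.0269 in flo11Δ and 0.249 ± 0.0425 in cis3Δ, against 0.241 ± 0.0420 in F45 of the second batch.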
